A study of Danio rerio with 4 samples.

Results

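The subunits of the respiratory chain and of the ATP synthase were examined in whole zebrafish larvae at 4 days post-fertilization (dpf). Members were taken by gene symbol alone, as the rows whose symbol begins with *nduf* and a subunit letter and number, *sdha* to *sdhd*, *uqcr*, *cox4* to *cox8*, *atp5* or *mt-*. This gave 106 of the 19143 genes in the authors' table, 13 of them mitochondrial genes and 93 nuclear genes. The libraries came from 2 pools of larvae homozygous for the *nlrc3l* st73 mutation and 2 pools of siblings that were heterozygous or wild type. Each group had a pool of 10 larvae and a pool of 12, and the labels name no treatment. Before pooling, larvae of both groups were sorted by neutral red staining of microglia, which the study's methods carry out live in water with the pigment inhibitor PTU. Mutants were chosen for a lack of microglia and siblings for their presence. Because whole larvae were pooled, fewer cells of a type and less RNA per cell cannot be told apart in these values.

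The respiratory chain passes electrons from NADH and succinate to oxygen through complexes I to IV and pumps protons out of the mitochondrial matrix, and complex V, the ATP synthase, uses the returning protons to make ATP. Most subunits are encoded in the nucleus and imported. The mitochondrial genome encodes the membrane core of complex I, cytochrome b of complex III, the catalytic core of complex IV and a pair of membrane subunits of complex V, whereas complex II is nuclear throughout.

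The value analysed for each gene was the authors' mean over the 4 libraries of read counts divided by a size factor per library, given here as normalized counts. It is a single value for mutants and siblings together. Spread between pools and the difference between the genotypes are therefore not described here, and no test was made. Over all genes these means summed to 8721330 normalized counts, with a median of 126 and a lowest value of 9.18. Here and below, all genes means the 19143 that the authors list, none of which had a lower mean. Medians, percentiles and shares are relative to these listed genes. A long transcript gives more reads than a short one at the same abundance, and the values were not scaled for length, so each comparison below is one of reads and not of transcript abundance. Markers of the tissues of a whole larva had reads, among them *actc1b* of skeletal muscle with 98792 normalized counts, *apoa2* of liver with 28669, *rho* of rod photoreceptors with 7095, *elavl3* of neurons with 2057 and *mpx* of neutrophils with 186. Heart, lens, exocrine pancreas, intestine and blood markers had reads too, with 260 normalized counts for *myl7*, 2596 for *crygm2d12*, 1683 for *prss1*, 2202 for *fabp2* and 2953 for *hbbe1.1*. Other markers of skeletal muscle, liver, retina, lens, exocrine pancreas and blood had fewer reads, among them *fabp10a* with 833, *cryaa* with 206 and the rows of *hbae1.1* with 304 and 357. Those of neurons, intestine and neutrophils had more, with 2903 for *snap25a*, 4931 for *apoa4b.1* and 246 for *lyz*. Macrophage markers were read at low depth, with 49.4 normalized counts for *mpeg1.1* and 30.0 for *marco*. The microglia marker *apoeb* had 7244, but other tissues of a larva make it as well. Markers were assigned to tissues by name, and reads that other tissues may add, as to *apoa2* or *apoa4b.1*, could not be separated. The planned markers *vmhc* of heart and *p2ry12* of microglia have no value here.

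The 106 members made up 0.554% of the genes and held 7.50% of all normalized counts. The 13 mitochondrial genes held 5.80% and the 93 nuclear genes 1.70%, so that 77.4% of the reads of the members were mitochondrial. Of the members, 97 lay above the median of all genes and 9 below it, and their median percentile by reads was 94.6. Among the 100 genes with the most reads, 13 were members. These were 11 mitochondrial genes and the nuclear genes *atp5f1b* and *atp5fa1*, which encode the catalytic beta subunit and the alpha subunit of the ATP synthase.

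Reads of the mitochondrial genes were concentrated on complex IV. The gene *mt-co1* (ENSDARG00000063905), which encodes the catalytic subunit that binds oxygen, had 143382 normalized counts, the most of any gene in the table, and took 28.3% of the mitochondrial reads. The other core subunits of complex IV, *mt-co3* and *mt-co2*, had 64565 and 59876 normalized counts. Together the 3 genes of complex IV took 52.9% of the mitochondrial reads. Of the complex V genes, *mt-atp6*, a subunit of the proton channel, had 67067 normalized counts and *mt-atp8* had 19779. Cytochrome b, encoded by *mt-cyb* and the one mitochondrial subunit of complex III, had 45793.

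The 7 mitochondrial genes of complex I took 20.9% of the mitochondrial reads, less than *mt-co1* alone. Their reads fell into a group of 4 close values and 3 lower ones. The genes *mt-nd4*, *mt-nd5*, *mt-nd1* and *mt-nd2* had 23976, 21633, 21339 and 18128 normalized counts. Below them were *mt-nd6* at 11809, *mt-nd4l* at 4456 and *mt-nd3* at 4168. All of these encode subunits of the proton-pumping membrane arm. In the gene order of the RefSeq annotation of GRCz12tu, the pairs *mt-atp8* and *mt-atp6*, *mt-atp6* and *mt-co3*, *mt-nd4l* and *mt-nd4*, and *mt-nd5* and *mt-nd6* overlap, so reads of these neighbours can have been left out or shared by the counting. Libraries were made from RNA captured on oligo-dT, so the reads also follow how far each mitochondrial transcript is polyadenylated. The part of overlap, polyadenylation and transcript length in these differences was not tested.

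**Figure D1:**
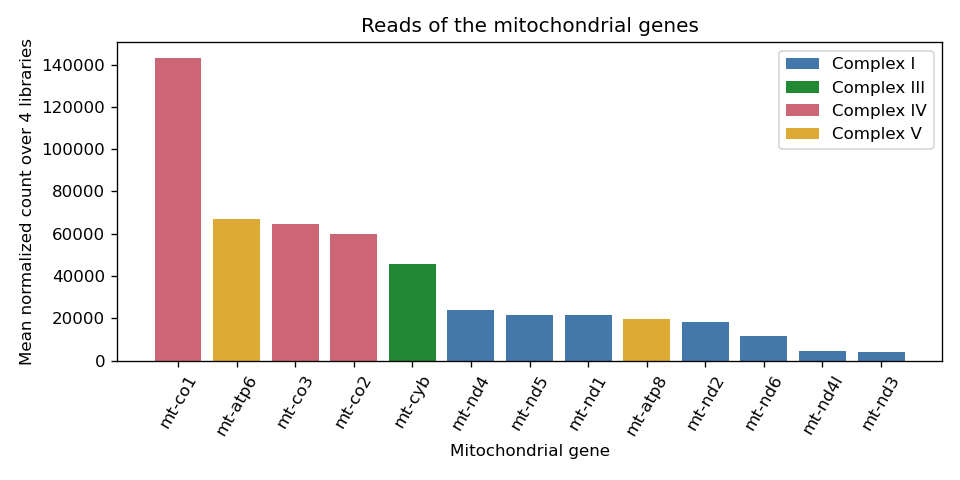
Mean normalized count over the 4 libraries (linear axis) for each of the 13 mitochondrial genes, coloured by complex. Each bar is the authors' mean and has no error bar because values per library were not used. The tallest bar is *mt-co1* at 143382 and the lowest is *mt-nd3* at 4168.

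Complex I, the NADH dehydrogenase, had 35 nuclear subunit genes among the members, with a median of 790 normalized counts. The highest was *ndufv1*, the subunit that binds NADH and the flavin, with 2689. It was followed by *ndufs1*, which encodes an iron-sulfur subunit, with 2110. Both belong to the catalytic core that bacteria share. The lowest were the accessory subunit genes *ndufa3*, with 425 normalized counts, and *ndufa9b*, the minor copy of its subunit, with 116. Between these ends core and accessory genes were mixed, with 1681 for the accessory *ndufb8* and 870 for the core *ndufv2*. Apart from *ndufa9b*, each of these nuclear complex I genes lay above the median of all genes. Nuclear genes held 23.6% of the reads of the complex I members and mitochondrial genes 76.4%.

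Complex II, the succinate dehydrogenase, also works in the citric acid cycle. Its 4 subunit genes ran in the order *sdha* with 2195 normalized counts, *sdhb* with 1534, *sdhc* with 1028 and *sdhdb* with 790. The first encodes the flavoprotein, the second the iron-sulfur subunit and the others the membrane anchors. All 4 were within 2.78-fold of each other. The prefix also took in 4 assembly factors of complex II, which are no subunits. They had fewer reads than any subunit of the complex, with 222 normalized counts for *sdhaf2*, which in yeast and humans serves the attachment of flavin to SDHA, 118 for *sdhaf4*, 102 for *sdhaf3* and 64.5 for *sdhaf1*.

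Complex III, the cytochrome bc1 complex, had 8 nuclear genes among the members, with a median of 1498 normalized counts. Their range was 2.73-fold from lowest to highest, or 3.04-fold with the copies of *uqcrc2* summed. The core protein gene *uqcrc1* had 3053 normalized counts and *uqcrfs1*, which encodes the Rieske iron-sulfur protein, had 2220. The copies *uqcrc2b* and *uqcrc2a* of the other core protein had 2057 and 1339. The small subunit genes *uqcr10* and *uqcrq* were lowest, at 1261 and 1118. The single mitochondrial gene *mt-cyb* held 76.6% of the reads of the complex III members. The gene *cyc1*, which encodes cytochrome c1 of this complex, is outside the rule on symbols and was not counted.

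Complex IV, the cytochrome c oxidase, had 22 nuclear genes, which ran from 20.4 normalized counts for *ndufa4l2a* to 3599 for *cox4i1*, or 177-fold. With the copies of each subunit summed, 11 subunits remained and the range was 2.68-fold, from 1524 for *cox7a* to 4084 for *cox4*. Next to *cox4i1* were *cox6a1* with 2772 and *cox6b2* with 2664. *ndufa4* is placed here, since the mammalian protein NDUFA4, once assigned to complex I, is a subunit of complex IV. Its relatives are placed with it by name, and whether *ndufa4l2a* is a subunit was not tested. The next lowest gene, *cox4i1l*, had 20.6 normalized counts. The median was 1162 over genes and 2665 over subunits with copies summed. Of the 22 genes 17 lay above the median of all genes. The other 5 were *ndufa4l2a*, *cox4i1l*, *cox6a2*, *cox7a1* and *cox5b2*, each counted here as one of several copies of its subunit. Nuclear genes held 9.79% of the reads of the complex, the smallest nuclear part of any complex. *cox7a2l*, whose mammalian product takes part in joining complexes III and IV, was counted apart and had 583 normalized counts.

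Complex V, with 17 nuclear genes, had a median of 2281 normalized counts. This was the highest of the complexes gene by gene, but with copies summed it was 2511, below the 2665 of complex IV. The catalytic head was led by *atp5f1b* with 14156 and *atp5fa1* with 12628, and the gamma subunit of the central stalk, *atp5f1c*, had 4147. The delta and epsilon subunits of that stalk, *atp5f1d* and *atp5f1e*, had 1409 and 1202. Of the peripheral stalk, *atp5po*, *atp5pb*, *atp5pd* and *atp5pf* had 3765, 3620, 2741 and 1761. The ring of c subunits through which protons pass was encoded by *atp5mc3b*, *atp5mc1* and *atp5mc3a*, with 6919, 3126 and 2007. The lowest were *atp5md* with 919 and *atp5mea* with 476. Nuclear genes held 42.5% of the reads of complex V. The paired inhibitor genes *atp5if1b* and *atp5if1a*, whose mammalian relative blocks reversed action of the enzyme, had 890 and 769 and were counted apart.

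**Figure D2:**
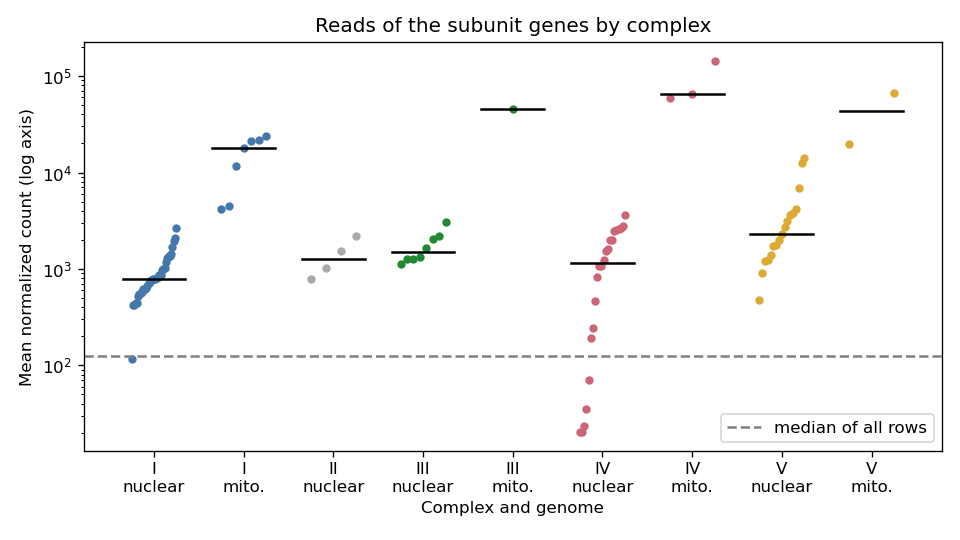
Mean normalized count over the 4 libraries (log axis) of each subunit gene, by complex and genome. Points are genes, black lines are medians and the dashed line is the median of all genes at 126. Mitochondrial genes lie at 4168 or above, while the nuclear genes of complex IV reach down to 20.4.

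Across complexes, the median of the mitochondrial genes was 21633 normalized counts and that of the nuclear subunit genes was 1196, a ratio of 18.1 in reads per gene. The groups overlapped, since 3 nuclear genes, *atp5f1b*, *atp5fa1* and *atp5mc3b*, had more reads than *mt-nd3*, the lowest mitochondrial gene. All of these also had more than *mt-nd4l*, and *atp5f1b* and *atp5fa1* had more than *mt-nd6*.

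Several subunits were encoded by more than one gene, 13 of them by 30 rows in all when the ATP synthase inhibitor is included. The division of reads between copies ranged from nearly all on 1 gene to nearly even. For 4 subunits the leading copy held more than 90% of the reads. *cox6a1* held 99.2% of the reads of *cox6a*, with 2772 normalized counts against 23.3 for *cox6a2*. *COX5B* held 97.2% against *cox5b2*, *cox8a* held 92.8% against *cox8b*, and *ndufa9a* held 91.1% against *ndufa9b*. The *COX5B* share leaves out a further gene of that name, given below, which had 74.1 normalized counts against 70.9 for *cox5b2*. *cox4i1* held 88.1% of its subunit, with 464 normalized counts for *cox4i2*, whose mammalian counterpart is the isoform of lung and of low oxygen, and 20.6 for *cox4i1l*. For *cox7a* the leading copy *cox7a2a* held 81.4%. The row named *COX7A2 (1 of many)* had 247 normalized counts, or 16.2%, and *cox7a1*, named after the mammalian heart and muscle isoform, had 35.6, or 2.34%. The file's *cox6a2* bears the name COX6A1 in the gene name table used here, so it is not taken for the muscle isoform of mammals.

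Other subunits drew reads from both or all of their copies. *cox6b2* held 76.5% against *cox6b1*, *atp5meb* 72.1% against *atp5mea*, and *cox5aa* 70.8% against *cox5ab*. In the *ndufa4* group *ndufa4l* held 64.2%, *ndufa4* 35.1% and *ndufa4l2a* 0.661%. For *uqcrc2* the leading copy held 60.6%, and for the c ring *atp5mc3b* held 57.4%, *atp5mc1* 25.9% and *atp5mc3a* 16.7%. The most even division was that of the inhibitor, with 53.6% for *atp5if1b* and 46.4% for *atp5if1a*. Near-identical copies can share reads, so these shares are uncertain to the extent that the counting split them.

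**Figure D3:**
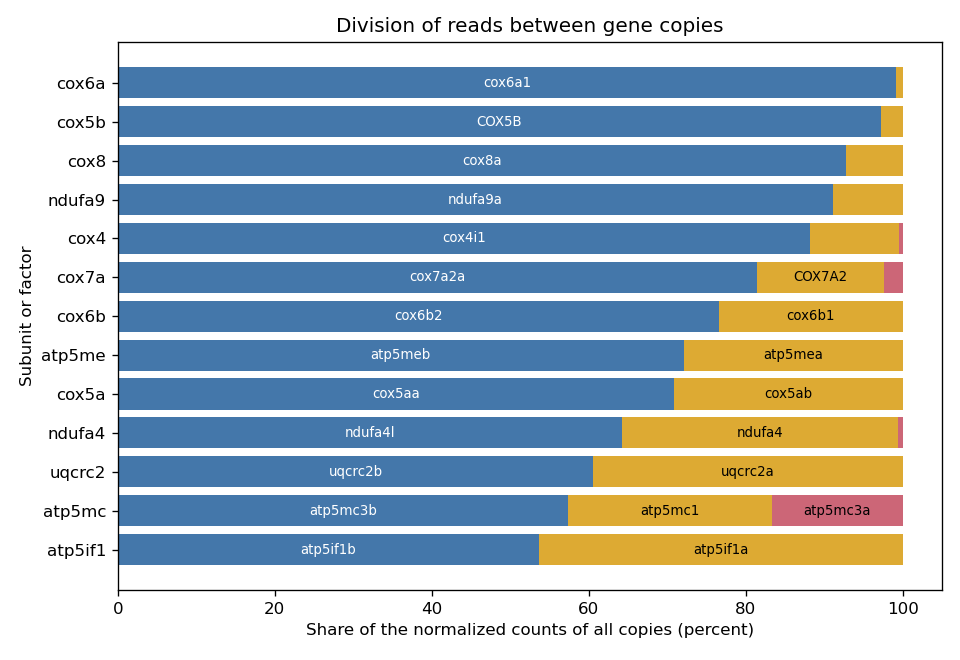
Share of normalized counts (percent) held by each gene copy of the 13 subunits or factors with more than 1 row, ordered from the most unequal division at the top. Blue is the leading copy and yellow and red the next ones, and copies with 12% or less carry no name. The leading share runs from 99.2% for *cox6a1* to 53.6% for *atp5if1b*.

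Genes that build and serve these complexes had lower medians, from 88.7 to 303 normalized counts over 5 lists, than the 1196 of the nuclear subunit genes. Of 47 assembly factor rows 25 lay above the median of all genes, with a median of 131 normalized counts and a range from 48.9 for *NDUFAF8* to 427 for *cox17*, a copper chaperone of complex IV. This list includes the 4 assembly factors of complex II given above. The genes named as mitochondrial ribosomal proteins, taken by symbol alone, mostly serve translation of the 13 mitochondrial genes. Of these 76 genes 73 lay above the median of all genes, with a median of 258. Of 15 genes for transcription, replication and RNA handling in mitochondria, 5 did, with a median of 88.7 and a highest value of 732 for *lrpprc*, whose mammalian product stabilizes mitochondrial mRNA. Among the electron carriers and genes of coenzyme Q synthesis, 10 of 15 did, led by cytochrome c *cycsb* with 2613. The 8 nuclear regulators ran from *ppargc1a*, a coactivator of mitochondrial genes, with 67.1 to *yy1a* with 567.

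Not every subunit of the complexes is among the members. Subunits whose symbols the rule cannot match, such as *cyc1* of complex III and *ndufab1* of complex I, were not counted. The gene counts, medians and shares given for a complex are therefore those of its members. The genes *ndufc1* and *atp5mj* stand in the table under provisional names and were missed by the rule on symbols, with 372 and 1619 normalized counts, and a gene named COX5B in the gene name table, also provisional in the file, had 74.1. They were found through the gene name table and are in none of the sums or copy shares above. The gene *ndufa4l2b* and another gene identifier named SDHD had no row among the genes used, so they have no value here. The symbols *ndufa13* of complex I and *uqcr11* of complex III, which the rule would match, are not among the members either.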

How the data were processed

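RNA-seq libraries from 4 pools of whole larvae, 2 per group, were made by the authors from oligo-dT-captured RNA with a stranded kit and sequenced as paired ends. Trimmomatic served the authors for trimming, HISAT2 for alignment and DESeq2 for normalization and the comparison of genotypes. The submitters' processing notes also name featureCounts, Subread 1.5.2, R 3.3.1 and GRCz10. The strand setting and the treatment of overlapping genes are not given in the sources used here.

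The deposited value used is a signal, the authors' mean over the 4 libraries of counts divided by size factors. The other value columns hold the authors' own comparison of the genotypes (log2 fold change, its error, statistic, p-values), and a second table holds genes selected by it. These were not used. Depth per library is unknown from the mean alone, and no interval was given and no test made.

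Members were matched by symbol and grouped by complex, and sums, medians, shares and ranks were computed. Scaling by coding length had been planned, but no length of the files' build was used, so values are unscaled. Genes named are all mitochondrial and complex II genes, the highest and lowest of each other complex, copies of a subunit, rows that are no subunits, and genes of lists. The electron carriers, tissue markers and genes under provisional names were partly picked after their values were seen. Members and lists were chosen with earlier results of these data known. Names came from the file, and the order of mitochondrial genes from RefSeq (GRCz12tu). Python 3.11.15, numpy 2.4.6, pandas 2.3.3 and matplotlib 3.10.9 were used. The value of 1 gene that the naming rule selects is not reported here.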

Additional observations from a re-analysis of the deposited data

How the results depend on the processing

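Counting subunits only, the members held 7.47% of all normalized counts, and leaving out mitochondrial rRNA and tRNA changed nothing, as no such row was among the members. With the reads of gene copies summed, the nuclear medians were 793, 1657, 2665 and 2511 normalized counts for complexes I, III, IV and V, so complex IV moved from 1162 to above complex V. Summing copies, an alternative chosen after seeing the data for the range, gave 6.33-fold, 3.04-fold, 2.68-fold and 15.4-fold from lowest to highest for complexes I, III, IV and V, against 23.2-fold, 2.73-fold, 177-fold and 29.7-fold gene by gene, and left complex II at 2.78-fold. With genes under 100 normalized counts left out, the complex IV median was 1629. The ratio of mitochondrial to nuclear reads per gene was 23.0 with means in place of medians. Alternatives that scale by coding or transcript length were not run, because no length of the files' build was used. No paired analysis was possible because the value used is a single mean over all 4 libraries, and for the same reason no library could be left out.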
